A study of Mus musculus with 7 samples.

Results

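Sinusoidal endothelial cells line the capillaries of the liver, and 10 genes that mark them were followed in 7 single-cell libraries of mouse liver: Stab1, Stab2, Lyve1, Clec4g, Oit3, Gpr182, Fcgr2b, Dnase1l3, Gata4 and F8. The genes were chosen by name out of the 32285 genes in each count table, with earlier results of these data known. They were read in endothelial-like cells, set by clusters in which Cdh5, Kdr, Ptprb and Egfl7 (an adhesion molecule, a VEGF receptor, a phosphatase and a secreted factor shared by blood vessels of every kind) stood out, and in the other cell classes. The 10 genes were left out of the clustering. Endothelial-like cells made up 8186 of 72669 analysed cells.

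The libraries were 3′ tag libraries of dissociated liver from C57BL/6J mice of the ABC-Myc model, in which Cre driven by the albumin promoter removes a stop cassette in hepatocytes and so switches on human MYC from a CAG promoter. Endothelial cells are not the cells in which that Cre is expressed. In the study's text the tumors are NEJ634, NEJ687, NEJ709 and NEJ723, and 3 healthy livers are described, which leaves NEJ638, NEJ654 and NEJ677. Its controls are littermates that do not carry the full set of alleles. The labels describe all 7 libraries alike as liver of a hepatoblastoma model, give no genotype, age, sex or replicate number, and under NEJ709 also name NEJ634, so no library was placed in a group here. Each library is therefore given by its own value, no test between conditions was made, and an interval covers counting error only.

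Unlike the capillaries of most organs, liver sinusoids have an open, fenestrated lining with no continuous basement membrane, and their cells clear waste from portal and arterial blood. Stab1 and Stab2 encode the stabilins, large scavenger receptors, and Stab2 takes up hyaluronan. Lyve1 encodes another hyaluronan-binding receptor, known also from lymphatic vessels. Clec4g encodes a C-type lectin, and Fcgr2b an inhibitory Fc receptor that removes small immune complexes. Gpr182 encodes an atypical receptor that scavenges chemokines. Dnase1l3 encodes a secreted nuclease of circulating chromatin, F8 the clotting factor VIII, and Oit3 a secreted protein with a zona pellucida domain. Gata4 encodes the transcription factor that sets the sinusoidal programme of the liver.

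In the GENCODE M21 annotation of GRCm38 all 10 are protein-coding genes on the minus strand. Dnase1l3, Stab1 and Gata4 lie on chromosome 14 (start 7964533 to end 7994573, 31139013 to 31168641, and 63198922 to 63271692). Oit3, Stab2 and Gpr182 lie on chromosome 10 (59422958 to 59441778, 86841198 to 87008025, and 127747276 to 127751732). Fcgr2b lies on chromosome 1 (170958617 to 170976547), Lyve1 on chromosome 7 (110850607 to 110863239), Clec4g on chromosome 8 (3707064 to 3720651) and F8 on chromosome X (75172715 to 75382615). The count tables name no build, and these positions come from matching Ensembl gene identifiers, which was possible for 32158 of the 32285 genes.

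RefSeq promoter windows (build GRCm38.p6, 250 bases before to 50 bases after a start) were at hand for 5 of the 10 genes, Stab1, Stab2, Clec4g, Fcgr2b and F8. The 250 bases upstream are printed for Clec4g, whose level differed most between libraries, and for Stab2, whose ratio between NEJ723 and NEJ654 was close to 1, because a factor of the GATA family is itself among the 10. Both genes were chosen after their values were seen, by unlike criteria. Stab2 itself ranged 3.18-fold over the libraries, so the pair does not contrast a variable gene with a steady one. Capitals mark a match to a GATA motif (the run AGATAA, the run AGATAG, the run TGATAA or the run TGATAG, on either strand).
Clec4g, chr8:3720652-3720901, minus strand: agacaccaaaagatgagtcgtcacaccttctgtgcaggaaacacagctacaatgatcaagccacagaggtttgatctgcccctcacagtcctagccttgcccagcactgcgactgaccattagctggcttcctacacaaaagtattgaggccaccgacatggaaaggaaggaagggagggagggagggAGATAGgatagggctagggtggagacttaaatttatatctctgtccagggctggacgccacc
Stab2, chr10:87007943-87008192, minus strand: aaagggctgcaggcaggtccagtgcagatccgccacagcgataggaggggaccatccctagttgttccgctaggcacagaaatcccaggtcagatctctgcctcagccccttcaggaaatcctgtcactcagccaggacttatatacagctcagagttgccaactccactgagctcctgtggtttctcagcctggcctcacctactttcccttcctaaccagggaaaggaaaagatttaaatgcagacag
The Clec4g stretch holds 1 GATA match and the Stab2 stretch none. Over whole windows of 300 bases, 3 of the 5 genes (Clec4g, Fcgr2b and F8) held a GATA match, against 29.8% of all 32851 windows, and 3 of the 5 (Stab1, Stab2 and Clec4g) held AGGAAG, the core of ETS factor sites, against 35.4% of all windows. The windows of Fcgr2b and F8 begin inside the annotated gene rather than at its outer end. A match is a run of letters and not a measured site.

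Totals ran from 40214395 to 132485391 unique molecular identifiers (UMIs, one per captured RNA molecule) per library. Endothelial-like cells numbered 2274 in NEJ638, 2363 in NEJ654 and 1895 in NEJ677, or 33.9%, 32.3% and 25.5% of the analysed cells. They numbered 1428 in NEJ634 (8.42%), 121 in NEJ687 (1.56%) and 89 in NEJ723 (0.715%). NEJ709 held 16 such cells among 14054 (0.114%, exact binomial 95% interval 0.0651% to 0.185%), under the minimum of 20 set for a level, so NEJ709 is left out of the levels below. How many cells of each type survive dissociation and cell calling also sets these shares. By a stricter calling rule, the top-barcode rule alone, NEJ634 had 39 endothelial-like cells, NEJ687 41 and NEJ723 18. NEJ638, NEJ654 and NEJ677 then had 1973, 1167 and 1288. With every barcode over 500 UMIs kept instead, NEJ634 had 4036, NEJ687 121 and NEJ723 105, and NEJ638, NEJ654 and NEJ677 had 2274, 2856 and 2103. Of endothelial-like cells, 1.12% to 12.5% per library carried a barcode that was also called as a cell in another library (2 of 16 in NEJ709, at most 1.90% elsewhere).

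NEJ634 stood apart before any sinusoidal gene was read. Its barcodes at ranks 45000 to 90000, taken as the free RNA of the suspension, still held 210 to 952 UMIs each, where the other libraries held 7 to 460. The summed level of the neutrophil markers in its endothelial-like cells was 8199 CPM (UMIs of a gene per 1e6 UMIs of those cells), all 6 of 6 markers detected, where the other libraries had 26.9 to 1363 CPM. All 8 macrophage markers were detected too, at a summed 3201 CPM against 229 to 1448 CPM elsewhere. The 4 endothelial genes that set the class were themselves lower in NEJ634 than in NEJ654, with ratios of 0.244 for Ptprb, 0.286 for Kdr, 0.327 for Egfl7 and 0.453 for Cdh5. Erythroid markers summed to 41320 CPM in NEJ634, 31120 in NEJ687 and 53950 in NEJ723 against 6786 to 8206 CPM in NEJ638, NEJ654 and NEJ677. The free RNA held 44860 CPM of them in NEJ634, 95270 in NEJ687, 44660 in NEJ723 and 11030 to 51740 in NEJ638, NEJ654 and NEJ677. In NEJ634 it held 16160 CPM of the neutrophil markers, above the level in the cells, and 1870 CPM of the macrophage markers, below it. The levels of the 10 genes in NEJ634 and their ratios to NEJ654 are accordingly given with and without the sub-clusters led by genes of blood cells, macrophages or hepatocytes, while detection and the other gene lists are given for all 1428 cells.

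Every one of the 10 genes was at least 4-fold higher in endothelial-like cells than in all other analysed cells of the same library, in each of the 6 libraries, with the counting interval of the ratio above 1. Over all genes at 10 CPM or more, 6.18% in NEJ634, 19.6% in NEJ687, 16.5% in NEJ723, 12.3% in NEJ638, 9.54% in NEJ654 and 12.1% in NEJ677 reached that mark. In NEJ654 the ratios of the 10 genes ran from 8.77 for Stab2 to 11.4 for F8, in NEJ677 from 10.5 for Lyve1 to 15.2 for F8, and in NEJ638 from 13.04 for Dnase1l3 to 16.3 for F8. In NEJ634 they ran from 10.6 for Gata4 to 21.1 for Clec4g. Ratios were far larger in NEJ687, from 127 for Fcgr2b to 591 for Oit3, and in NEJ723, from 30.2 for Fcgr2b to 1056 for Lyve1 (95% interval 836 to 1348). The larger ratios came with lower levels in the other cells: Clec4g outside endothelial-like cells was at 3.26 CPM in NEJ687 and 0.688 in NEJ723 but 292 in NEJ654, where the free RNA itself held 260 CPM. The other cells include a cluster with both endothelial and macrophage markers. Of all Clec4g UMIs in NEJ654, that cluster held 12.2% and endothelial-like cells 79.5%. The same cluster held 5.09% of all Clec4g UMIs in NEJ687 and 0 in NEJ723. Its part in the smaller ratios of NEJ654, and that of the free RNA, was not tested.

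Lymphocytes (T/NK-like and B-like cells together) gave the background, since of these genes B cells are known only for Fcgr2b. The summed level of the 10 genes in them was 19.9 to 193 CPM in the 6 libraries, against 3332 CPM (3273 to 3392) in the endothelial-like cells of NEJ634, 7595 (7401 to 7793) in NEJ687, 4744 (4559 to 4934) in NEJ723, 11430 (11350 to 11520) in NEJ638, 11150 (11070 to 11240) in NEJ654 and 11780 (11700 to 11860) in NEJ677. Without the sub-clusters led by genes of other cell classes, the sum was 7467 CPM (7174 to 7769) in NEJ634, 8155 (7906 to 8409) in NEJ687, 5018 (4802 to 5241) in NEJ723, 11510 in NEJ638, 12300 in NEJ654 and 11930 in NEJ677. NEJ634, NEJ687 and NEJ723 lay below the other 3 both ways, but the place of NEJ634 among them was not kept.

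**Figure D1:**
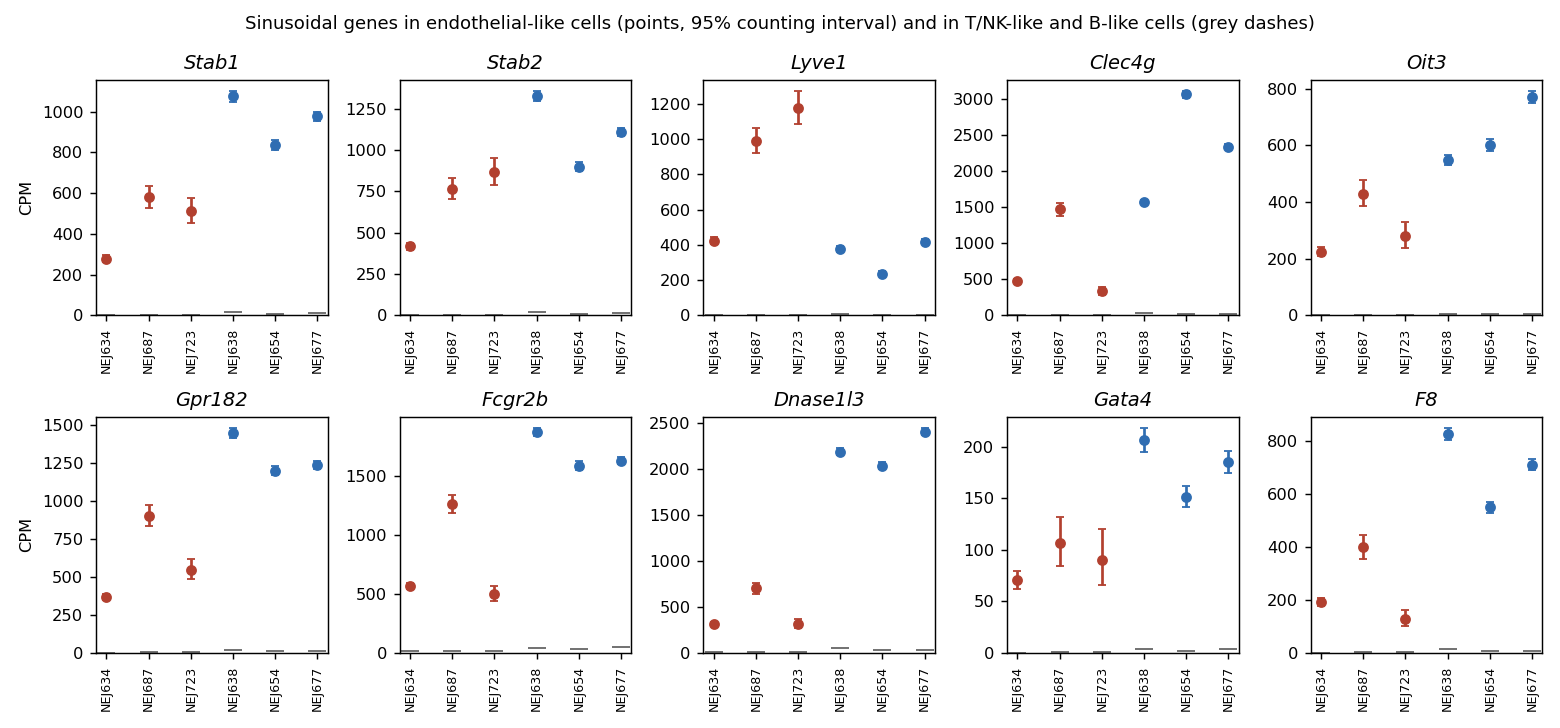
Level of each gene (CPM, linear axis from 0) in the endothelial-like cells of 6 libraries, with exact Poisson 95% intervals as bars; red points are libraries the study's text names as tumors, blue points the 3 others, and grey dashes show T/NK-like and B-like cells. Lyve1 is highest in NEJ723 and NEJ687, at 1176 and 991 CPM, while each of the other 9 genes is highest in NEJ638, NEJ654 or NEJ677.

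Among the scavenger receptors, Stab1 stood at 279 CPM in NEJ634, 579 in NEJ687 and 511 in NEJ723, and at 1076 in NEJ638, 836 in NEJ654 and 978 in NEJ677. Values of NEJ687 and NEJ723 could not be told apart by counting error, and every other neighbour in the order could. Stab2 stood at 418 CPM in NEJ634, 764 in NEJ687, 868 in NEJ723, 1328 in NEJ638, 900 in NEJ654 and 1109 in NEJ677. Here NEJ723 (790 to 952) overlapped NEJ654 (874 to 925), so only NEJ634 and NEJ687 lay clearly below.

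Lyve1 ran the other way. It stood at 423 CPM in NEJ634, 991 (921 to 1064) in NEJ687 and 1176 (1085 to 1273) in NEJ723, against 377 in NEJ638, 235 in NEJ654 and 417 in NEJ677. NEJ687 and NEJ723 lay above every other library, and NEJ634 could not be told from NEJ677. Stab2, the other hyaluronan receptor, had its highest value in NEJ638 and Lyve1 in NEJ723.

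Clec4g, the lectin, spread furthest. It was at 3068 CPM (3021 to 3115) in NEJ654, 2342 in NEJ677, 1571 in NEJ638, 1470 in NEJ687, 481 in NEJ634 and 333 (285 to 386) in NEJ723, a 9.22-fold range in which the intervals of NEJ687 (1385 to 1559) and NEJ638 (1540 to 1603) overlapped and those of the other neighbours did not. Fcgr2b, the Fc receptor, was at 1869 CPM in NEJ638, 1626 in NEJ677, 1587 in NEJ654, 1258 in NEJ687, 564 in NEJ634 and 497 in NEJ723. Gpr182, the chemokine scavenger, was at 1447 CPM in NEJ638, 1238 in NEJ677, 1198 in NEJ654, 900 in NEJ687, 547 in NEJ723 and 368 in NEJ634. For both, NEJ677 and NEJ654 overlapped, and NEJ687 lay between those libraries and the lower pair.

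Of the secreted products, Dnase1l3 gave the widest gap. It was at 2401 CPM in NEJ677, 2183 in NEJ638 and 2029 in NEJ654, and at 697 (639 to 759) in NEJ687, 316 in NEJ634 and 312 in NEJ723. The former 3 thus lay far above the latter, with no overlap. F8 was at 826 CPM in NEJ638, 712 in NEJ677, 550 in NEJ654, 400 in NEJ687, 190 in NEJ634 and 128 (99.3 to 163) in NEJ723. Oit3 was at 772 CPM in NEJ677, 601 in NEJ654, 549 in NEJ638, 430 in NEJ687, 281 in NEJ723 and 225 in NEJ634. Neighbours did not overlap for F8, and for Oit3 the intervals of NEJ723 and NEJ634 did.

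Gata4, the transcription factor, was at 206 CPM in NEJ638, 185 in NEJ677, 151 in NEJ654, 106 in NEJ687, 89.9 (66.1 to 120) in NEJ723 and 70.2 in NEJ634. It was counted least, with 47 UMIs in NEJ723, and the 3 lower libraries formed an unbroken run of overlapping neighbours.

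Put side by side, NEJ638, NEJ654 and NEJ677 held the 3 highest values for 9 of the 10 genes and the 3 lowest for the remaining one, Lyve1. Over 10197 genes that reached 10 CPM in any of the 6 libraries, 24.9% had those libraries as the 3 highest and 9.09% as the 3 lowest. The order was not equally firm for every gene: it was lost for Stab2 with every barcode over 500 UMIs kept, with at most 10% mitochondrial UMIs, with haemoglobin and mitochondrial UMIs left out, as a mean over cells and with a mixed endothelial and macrophage cluster counted in. It was lost for Clec4g with that cluster counted in and without the sub-clusters described next. It was lost for Lyve1 with every barcode over 500 UMIs, without doublet removal (310 CPM in NEJ634 against 371 in NEJ638), with each library clustered alone, with cells gated singly and as a mean over cells. Set against 14 endothelial genes shared by all vessels, as described after the ratios, 6 of the 9 genes lost it (Stab2, Gata4, Oit3, Fcgr2b, Gpr182 and Clec4g), and Stab1, Dnase1l3 and F8 did not. The 24.9% and 9.09% hold for CPM, and the share of all genes with that order on the other scale is not given.

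Ratios to NEJ654 put sizes on this. It was the library with the most endothelial-like cells as reported. By the top-barcode rule alone, and without the sub-clusters described in the next paragraph, NEJ638 had more. In NEJ634, 9 of the 10 genes were at least 2-fold lower with the interval below 1, against 16.7% of the 8527 genes tested. In NEJ723 it was 6 of 10 against 13.9%, and in NEJ687 2 of 10 against 8.73%. None of the 10 was 2-fold lower in NEJ638 or NEJ677, where 6.79% and 2.33% of genes were, and none was 2-fold higher in NEJ634, NEJ638 or NEJ677, where 5.88%, 6.47% and 0.211% of genes were. The 2 in NEJ687 were Clec4g (ratio 0.479, 0.451 to 0.509) and Dnase1l3 (0.344, 0.314 to 0.375). The 6 in NEJ723 were Clec4g (0.109, 0.0929 to 0.126), Dnase1l3 (0.154), F8 (0.233), Fcgr2b (0.313), Gpr182 (0.457) and Oit3 (0.468), while Stab2 had a ratio of 0.965 (0.875 to 1.06) there. Lyve1 was at least 2-fold higher in NEJ687 (ratio 4.21, 3.84 to 4.61, background 2.98%) and in NEJ723 (interval of the ratio 4.53 to 5.51, background 3.41%), and its ratios were 1.797 in NEJ634, 1.603 in NEJ638 and 1.774 in NEJ677. Lyve1 was lowest of all in NEJ654, so a ratio to that library is the largest that could have been drawn for it. Clec4g was highest of all in NEJ654, so its ratios are the smallest that could have been drawn. In CPM the interval of its 1470 in NEJ687 overlapped that of the 1571 in NEJ638, although the interval of their ratio left out 1. The values of NEJ687 also depended on which of its 121 cells were taken: clustered alone, 68 of them fell in a cluster with both endothelial and mesenchymal markers, and in the cluster then named endothelial-like 9 of 10 genes were 2-fold lower, against 14.1% of all genes tested, and Lyve1 was at 209 CPM. With single cells gated by UMIs of at least 2 of the 4 endothelial genes, 7 of 10 were lower in NEJ687, against 13.2% of all.

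The count of 9 in NEJ634 became 2 without the sub-clusters led by genes of other cell classes. Endothelial-like cells were sub-clustered without the 10 genes. With the sub-clusters led by blood cell, macrophage or hepatocyte genes left out, 46 of the 1428 cells of NEJ634 remained. NEJ654 itself kept 1093 of its 2363 cells. Of those it lost, 670 were in a sub-cluster led by hepatocyte genes and 492 in one led by lymphocyte genes. The median depths of these sub-clusters were 862 and 679.5 UMIs. NEJ638 kept 2213 of 2274 cells and NEJ677 1226 of 1895. Of the 46 cells, 36 were in a sub-cluster (number 8) that was kept although it has the haemoglobin genes Hba-a2, Hba-a1 and Hbb-bs among its 10 leading genes. The 46 cells held 327852 UMIs, of 3619438 in all 1428, so they were also deeper on average. The parts of depth and of leading genes in the fall from 9 to 2 were not tested. The erythroid markers summed to 3288 CPM in the 46 cells. In the cells kept by the same rule they still summed to 54340 CPM in NEJ723 (53950 before) and 19670 in NEJ687 (31120 before). In NEJ638, NEJ654 and NEJ677 they then summed to 2668 to 6583 CPM. In those 46 cells only Clec4g (1092 CPM, ratio 0.319, 0.286 to 0.354) and Dnase1l3 (811 CPM, ratio 0.363, 0.320 to 0.411) were still 2-fold lower than in the NEJ654 cells kept by the same rule, against 5.8% of all genes tested. Stab2 was at 915 CPM, a ratio of 0.943 (0.836 to 1.06), and Gata4 at 168 CPM, a ratio of 0.985 (0.734 to 1.30). Stab1 was at 650 CPM, Oit3 at 479, Gpr182 at 860, Fcgr2b at 1226 and F8 at 473, with ratios of 0.648 to 0.785. Lyve1 stood at 793 CPM, a ratio of 3.05 (2.65 to 3.50). The same rule left 6 of 10 genes lower in NEJ723 (79 of 89 cells kept, 13.5% of all genes lower) and 2 of 10 in NEJ687 (94 of 121 cells, 7.2% of all). It also put Clec4g 2-fold lower in NEJ638, where 6.23% of all genes tested were, with a ratio of 0.461 (0.449 to 0.474), close to the 0.467 (0.434 to 0.501) of NEJ687.

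Each gene was also set against the summed UMIs of 14 endothelial genes shared by all vessels, Pecam1, Tie1, Tek, Eng, Erg, Fli1, Sox18, Clec14a, Robo4, Esam, Cldn5, S1pr1, Mmrn2 and Ecscr. Their sum was 1942 CPM in NEJ634, 4307 in NEJ687, 4017 in NEJ723, 5285 in NEJ638, 5296 in NEJ654 and 5972 in NEJ677. Not all of the 14 were confined to endothelial-like cells. S1pr1 was lower in them than in T/NK-like and B-like cells in NEJ634, NEJ638, NEJ654 (75.6 against 125 CPM) and NEJ677. Fli1 was lower in NEJ654 (110 against 130 CPM) and NEJ677. Per shared UMI, Dnase1l3 was at 0.424 of its NEJ654 value in NEJ634, 0.423 in NEJ687 and 0.203 in NEJ723. Clec4g was at 0.428, 0.589 and 0.143, but also at 0.513 in NEJ638 and 0.677 in NEJ677. Stab1, Stab2, Oit3, Gpr182, Fcgr2b, Gata4 and F8 lay between 0.836 and 1.27 in NEJ634 and between 0.852 and 1.04 in NEJ687. In NEJ723 Fcgr2b (0.413) and F8 (0.307) were still 2-fold lower, and Gpr182 (0.602) and Oit3 (0.617) were not. Lyve1 was at 4.90, 5.18 and 6.59 of its NEJ654 value, although in NEJ634 58% of all genes were at least 2-fold higher on this scale, against 6.4% in NEJ687, 8.34% in NEJ723, 6.57% in NEJ638 and 0.141% in NEJ677. At least 2-fold lower on it were 1.13% of all genes in NEJ634, 4.36% in NEJ687, 6.81% in NEJ723, 6.76% in NEJ638 and 3.13% in NEJ677.

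**Figure D2:**
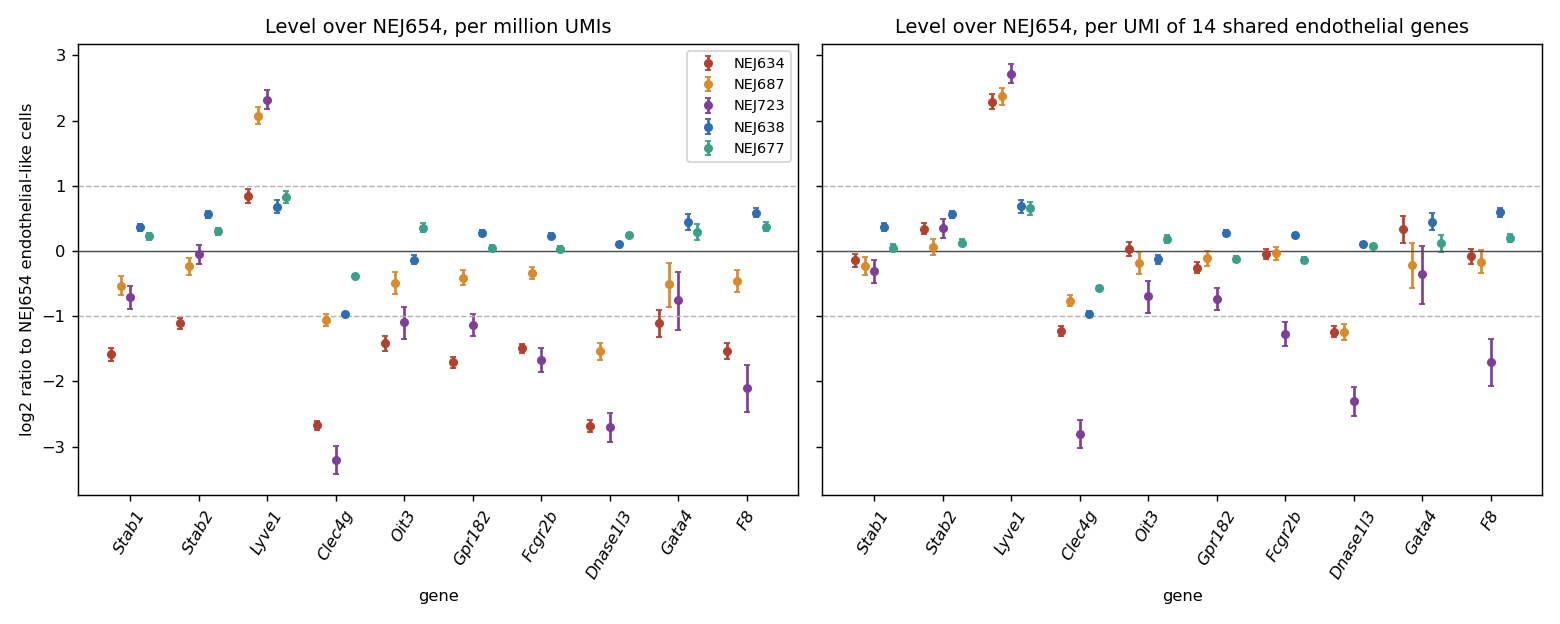
Log2 ratio of each gene in the endothelial-like cells of 5 libraries to NEJ654, as CPM (left) and per UMI of 14 shared endothelial genes (right); bars are exact 95% counting intervals and dashed lines mark 2-fold. In NEJ634 most genes move from below the lower dashed line on the left to near 0 on the right, while Dnase1l3 stays at 0.424 or less of NEJ654 in NEJ634, NEJ687 and NEJ723 and Lyve1 lies at 4.90 to 6.59 in those 3 libraries on the right.

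Detection was also read cell by cell at matched depth. Cells were thinned to 1000 UMIs each and shallower cells left out, 945 of 2363 in NEJ654 and none in NEJ634. A UMI of Lyve1 was then found in 52.4% of the endothelial-like cells of NEJ723 and 47.8% in NEJ687, against 29.97% in NEJ634, 29.6% in NEJ677, 27.4% in NEJ638 and 19.2% in NEJ654. A UMI of Dnase1l3 was found in 25.4%, 48.9% and 21.6% of the cells of NEJ723, NEJ687 and NEJ634, and in 83.2% to 86.5% in NEJ638, NEJ654 and NEJ677. For Clec4g the shares were 17.5% in NEJ723, 70.0% in NEJ687 and 29.8% in NEJ634 against 75.8% to 89.8%. In T/NK-like and B-like cells of the 6 libraries the thinned share was at most 0.484% for Lyve1, 4.18% for Dnase1l3 and 3.38% for Clec4g. Unthinned, Lyve1 was found in 56.2% of cells in NEJ723, 63.6% in NEJ687, 49.4% in NEJ634 and 26.5% to 49.2% in NEJ638, NEJ654 and NEJ677, with median depths of 1538 to 3727 UMIs per cell.

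The number of the 10 genes found in a cell was counted as well. At 1000 UMIs, at least 3 of the 10 were found in 97.2% (exact binomial 95% interval 96.4% to 97.8%) of endothelial-like cells in NEJ638, 92.5% (91.0% to 93.8%) in NEJ654 and 95.1% (93.9% to 96.1%) in NEJ677. This share was 81.1% (71.5% to 88.6%) of 90 cells in NEJ687, 57.1% (44.1% to 69.5%) of 63 cells in NEJ723 and 39.7% (37.2% to 42.3%) in NEJ634. In T/NK-like and B-like cells it was 0 to 0.796%. The median cell held 6 of the 10 genes in NEJ638, NEJ654 and NEJ677, 5 in NEJ687, 3 in NEJ723 and 2 in NEJ634. Whether the genes were found together more often than their single shares give was not tested.

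Outside the endothelium, levels of the 10 genes were read beside the free RNA. Stab2 was at 43.8 to 111 CPM in macrophage-like cells of all 7 libraries, against 0 to 17.2 CPM in T/NK-like and B-like cells and 10.8 to 86.7 CPM in the free RNA. In NEJ723 those values were 43.8 (35.1 to 53.9), 1.94 and 10.8 CPM. Stab1, which some macrophages make, was at 11.97 to 65.2 CPM in macrophage-like cells. In monocyte-like cells it was at 126 CPM (117 to 137) in NEJ723, 67.1 (48.4 to 90.8) in NEJ709 and 48.3 (34.2 to 66.3) in NEJ634, where the free RNA held 15.7, 21.3 and 34.2 CPM, and at 11.4 to 29.1 CPM in the other 4 libraries, where the free RNA held 21.2 to 87.3 CPM. In NEJ723 only 22.9% of all Stab1 UMIs came from endothelial-like cells, whereas 88.4% of Lyve1 UMIs did.

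Fcgr2b, known from B cells and myeloid cells, was at 26.0 to 78.9 CPM in B-like cells, 0 to 20.2 in T/NK-like cells, 48.3 to 154 in monocyte-like cells and 44.4 to 133 in conventional dendritic-like cells, where the free RNA held 10.8 to 152 CPM. The highest B-like and dendritic-like levels were those of NEJ677, and both lay below its free RNA at 152 CPM. The highest monocyte-like level was that of NEJ723, where the free RNA held 10.8 CPM. Of all Fcgr2b UMIs in NEJ723, 17.8% lay in endothelial-like cells. Dnase1l3, known also from dendritic cells, was at 44.6 CPM in the conventional dendritic-like cells of NEJ634, 88.8 in NEJ687, 188 in NEJ638, 156 in NEJ654 and 182 in NEJ677, where the free RNA held 34.5, 49.3, 139, 203 and 221.5 CPM in that order. The dendritic-like level thus lay below that of the free RNA in NEJ654 and NEJ677. In the 65 such cells of NEJ723 it was at 0, which allows up to 6.09 CPM (3 UMIs), beside 3.43 CPM in the free RNA.

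Mesenchymal-like cells, a class of 21 to 117 cells in each of 5 libraries, showed the next highest median of all 10 genes after endothelial-like cells. Gata4, known from hepatic stellate cells, was at 37.6 to 105 CPM there. In NEJ723 the 21 mesenchymal-like cells held 0 or 1 UMI of 7 of the other genes, and 8 UMIs of Stab1 and 3 of Fcgr2b. The whole class was 1 cluster in which the 4 endothelial genes were up as well, by a mean of 2.002 on the log2 scale, and their part in these levels was not tested. Hepatocyte-like cells ran from 0 to 112 CPM for any of the 10 genes, with the highest value that of Clec4g in NEJ654 (112 CPM, where the free RNA held 260).

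**Figure D3:**
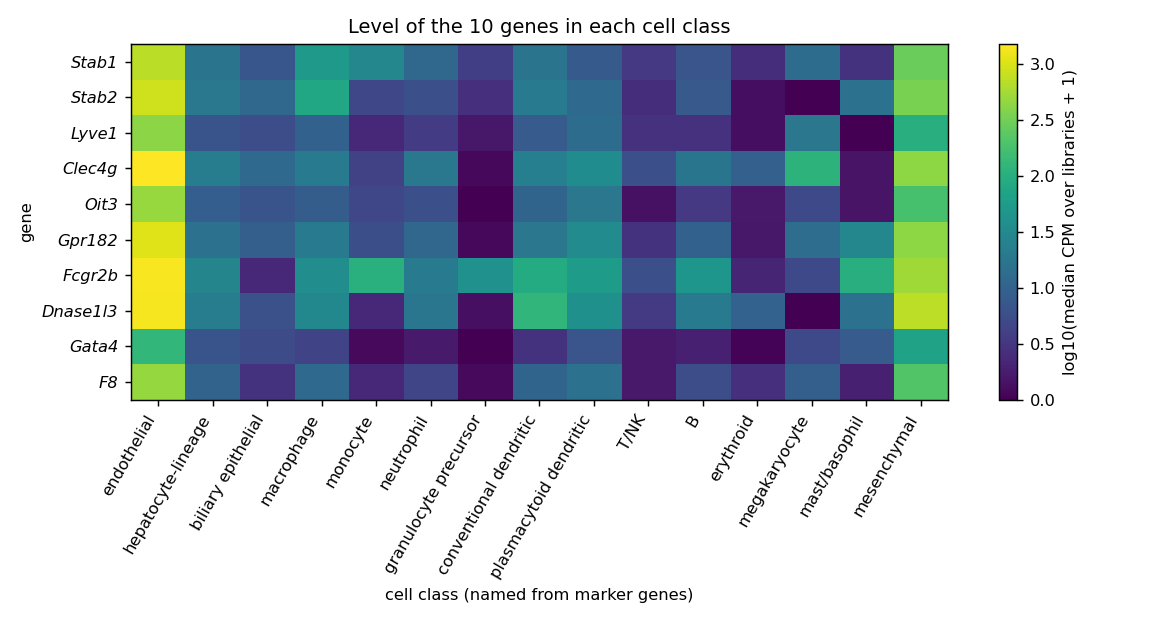
Median level over libraries of each gene in each cell class, as log10(CPM + 1), for classes of at least 20 cells in a library. The endothelial column is the brightest in every row and the mesenchymal column next, and Fcgr2b is at 48.3 to 154 CPM in monocyte-like cells; the free RNA is not subtracted.

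Among genes outside the 10, likeness was measured as Pearson's r of log2(CPM + 1) with the mean of the 10 over 84 pairs of library and cell class, for 14588 genes. The closest were Ptprb (r = 0.961), Flt4 (0.959), Adgrf5 (0.953), Tek (0.950), Ramp2 (0.949), Npr1 (0.949), Clec14a (0.948), Mmrn2 (0.945), Fam167b (0.945) and Cldn5 (0.945). Ptprb is one of the genes that set the class. The pairs share libraries and free RNA, so r is a description. Each of the 10 was compared with the mean of the other 9 in the same way, which gave r from 0.745 for Fcgr2b and 0.827 for Stab1 to 0.958 for Oit3.

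Of a further list of 18 sinusoidal genes, 13 were at least 2-fold lower than in NEJ654 in NEJ634 (0 higher), 6 in NEJ687 (1 higher) and 9 in NEJ723 (2 higher), against 16.7%, 8.73% and 13.9% of all tested genes lower, with median log2 ratios of -1.36, -0.49 and -0.98 against -0.31, -0.18 and -0.31 over all tested genes. The shares of all tested genes higher were 5.88%, 2.98% and 3.41%. In NEJ638, 2 of the 18 were higher and 0 lower, beside 6.47% and 6.79% of all, and in NEJ677 also 2 and 0, beside 0.211% and 2.33%. The 10 genes themselves had medians of -1.51, -0.47 and -1.11. Wnt2, a ligand that sinusoidal and central vein endothelium supply to hepatocytes, had the lowest ratio of the list in NEJ634, at 24.0 CPM against 314 in NEJ654, 85.2 in NEJ687 and 44.0 in NEJ723. Ehd3, a membrane trafficking protein, was at 358 CPM in NEJ634, 689 in NEJ687, 260 in NEJ723 and 2050 to 2894 in the other 3. Maf, a transcription factor, was at 524, 879 and 505 CPM and at 1229 to 2454 in the other 3.

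Fabp4, a fatty acid carrier, had the highest ratio of that list. It was at 12250 CPM in NEJ687 and 5746 in NEJ723 against 2350 in NEJ634 and 2480 to 3046 in NEJ638, NEJ654 and NEJ677. Gpihbp1, which anchors lipoprotein lipase, was at 2598 and 2248 CPM in NEJ687 and NEJ723, inside the 1444 to 2690 of those 3 libraries, and at 592 in NEJ634.

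Genes of continuous capillaries, arteries and tip cells were read from a list of 19, of which 11 were tested. In NEJ723, 7 of the 11 were at least 2-fold higher than in NEJ654 and 1 lower, against 3.41% and 13.9% of all tested genes. The test needs 10 CPM in NEJ654, so a gene low there could not be called higher. With 10 CPM in either library instead, which was chosen after seeing the data, 15 of 19 were higher in NEJ723 and 1 lower (6.98% and 13.01% of all), and 5 of 15 were higher in NEJ687 and 0 lower (5.71% and 8.20% of all). A gene under 10 CPM in NEJ654 passes this rule only if it is higher in the other library. The genes gained are therefore no further support for a difference. By the former rule in NEJ687 1 was higher and 0 lower (2.98% and 8.73% of all), in NEJ634 0 higher and 4 lower (5.88% and 16.7%), in NEJ638 1 higher and 1 lower (6.47% and 6.79%), and in NEJ677 0 of either (0.211% and 2.33%). The one lower in NEJ723 was Ly6a, a surface antigen, at 335 CPM against 710 in NEJ654. Elsewhere it was at 774 CPM in NEJ687, 610 in NEJ677, 308 in NEJ638 and 116 in NEJ634, which was the lowest ratio to NEJ654 among the tested genes of the list. Cd34 was at 151 CPM (120 to 188) in NEJ723 and 13.7 to 22.9 elsewhere. Vwf, the platelet-binding protein of larger vessels, was at 321 CPM in NEJ723, 128 in NEJ687, 33.7 in NEJ634 and 74.3 to 77.7 in the other 3. Plvap, the diaphragm protein of capillary pores, was at 344 CPM in NEJ723 and 83.4 to 204 elsewhere. Col4a1, a basement membrane collagen, was at 1371 CPM in NEJ723 and 537 to 902 elsewhere, and Col4a2 at 976 and 332 to 569. Esm1, a tip cell gene at 3.37 CPM in NEJ654, was at 88.0 CPM in NEJ723, 69.5 in NEJ687 and 20.7 in NEJ634.

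Of the 14 genes shared by all vessels, in NEJ634 12 of 14 were at least 2-fold lower than in NEJ654, in NEJ687 none of 14 and in NEJ723 1 of 14, Eng, with 1 higher, S1pr1. The shares of all tested genes lower were 16.7%, 8.73% and 13.9%, and 3.41% were higher in NEJ723. In NEJ638 2 of 14 were higher and 0 lower (6.47% and 6.79% of all), and in NEJ677 0 of either (0.211% and 2.33%). Of the lymphatic genes Prox1, Pdpn, Ccl21a and Mmrn1, the highest level in any library was that of Ccl21a in NEJ654, at 25.3 CPM, and Pdpn was at 0 or 1 UMI throughout. In NEJ687 and NEJ723, where Lyve1 was highest, Ccl21a, Pdpn and Mmrn1 had no UMI, which allows up to 3.93 and 5.74 CPM (3 UMIs), and Prox1 had 6 and 1.

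Variation within the endothelial-like cells was read from 13 sub-clusters made without the 10 genes or the 18 others. Sub-cluster 1 (2064 cells, almost all from NEJ677 and NEJ654) held the highest Clec4g and Dnase1l3, at 3079 and 2542 CPM. Sub-cluster 10 (129 cells, led by Eln, Ccl21a and Fbln2) held 4302 CPM of the Wnt enhancer Rspo3 and 247 CPM of Wnt9b, genes known from central veins. It also held 833 CPM of Vwf and 225.5 CPM of Ccl21a, a gene of the lymphatic list. In sub-cluster 10 Lyve1 was at 97.6 CPM and Stab2 at 254, against 388 and 1143 in sub-cluster 1. Sub-cluster 12 (99 cells, led by Nrg1, Adgrg6 and Gja5) held 247 CPM of Gja5, 5367 of Ly6a and 211 of Efnb2, genes known from arteries. It held more Vwf than sub-cluster 10, at 957 CPM. Its Lyve1 was at 45.4 CPM (29.4 to 67.0), Stab2 at 243 and Oit3 at 151. Gata4 differed less, at 195 and 140 CPM in sub-clusters 10 and 12 against 185 in sub-cluster 1.

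Sub-cluster 8 was the main one of NEJ687 and NEJ723. It held 81 of 121 cells of NEJ687, 74 of 89 of NEJ723, 9 of 16 of NEJ709 and 36 of 1428 of NEJ634, and 26 cells of the other 3 libraries. It was led by Igfbp3, Igfbp5, Lrg1 and Kcne3, with haemoglobin genes among the next. Within it Lyve1 was at 852 CPM (735 to 983) in NEJ634, 1095 (994 to 1204) in NEJ687 and 1380 (1259 to 1511) in NEJ723, and at 218 (116 to 372) in the 21 cells of NEJ638. Dnase1l3 was at 934 CPM in NEJ634, 830 in NEJ687, 355 in NEJ723 and 1021 (781 to 1312) in NEJ638. Clec4g was at 1292 CPM, 1685, 366 and 804 (592 to 1065) in the same order, and F8 at 517, 485, 141 and 435. Among these 4 libraries NEJ723 had the lowest Clec4g, F8 and Dnase1l3 in this sub-cluster too. The clusters were made from the same cells, so these values are a description.

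**Figure D4:**
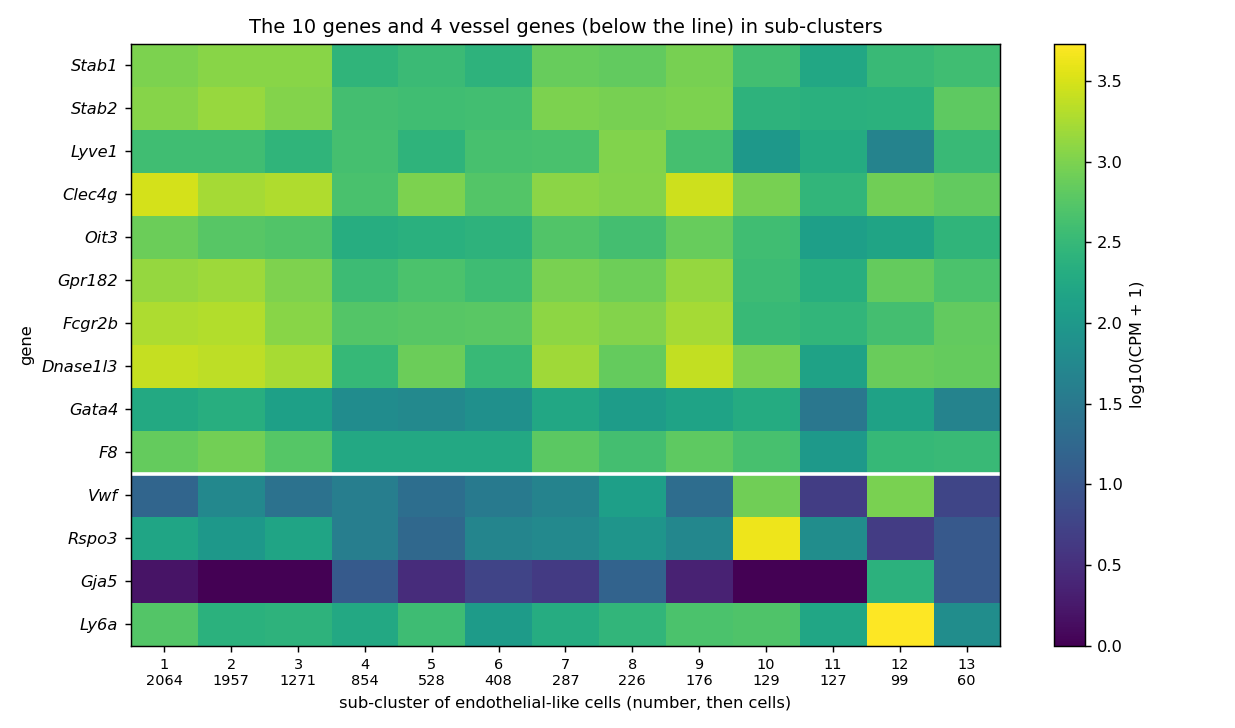
Level of the 10 genes and of 4 vessel genes (below the white line) in the 13 sub-clusters of endothelial-like cells, as log10(CPM + 1), with the number of cells under each sub-cluster number. Lyve1 is darkest in sub-clusters 10 and 12, where Vwf is brightest, and brightest in sub-cluster 8.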

How the data were processed

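The authors deposited, per library, a matrix of raw UMI counts for all barcodes (per the submitters' processing notes, Cell Ranger 6.0, with introns counted per the study's methods, while the file header names version 4; the build is not given in the sources used here). Counts are whole and not normalized. Per the study's methods, tumors were perfused and dissociated with collagenase. The series text calls the material nuclear, the labels cells. Barcodes were called as cells by a top-barcode rule (99th percentile of the top 3000, divided by 10) plus a Monte Carlo test against the free-RNA profile of ranks 45000 to 90000 (10000 draws, false discovery rate 0.01, at most 20000 barcodes tested, a limit that 3 libraries reached), and kept above 500 UMIs if mitochondrial UMIs were no more than 20%. The highest doublet scores were removed at 0.8% per 1000 cells, which took 81548 cells to 72669. Clustering (2000 variable genes, 40 components, 15 neighbours, Leiden resolution 1, igraph 0.11.9) left out 65 listed genes and gave 52 clusters. A cluster was named when its markers averaged 1.5 on the log2 scale over clusters of other classes, led the next class by 1, and at least 3 were up 2-fold. The limits on naming, and the class for 1 cluster with both endothelial and macrophage markers (kept out of the endothelial-like cells, 3.66%, 3.10% and 3.52% of the cells of NEJ638, NEJ654 and NEJ677, at most 0.0387% elsewhere), were chosen with the values in view.

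Levels are UMIs summed per library and class, as CPM with exact Poisson 95% intervals. Ratios have exact conditional intervals, and a level of 0 is set to 3 UMIs in a ratio. A call needs 10 CPM, a ratio past the fold named and an interval that leaves out 1. In simulated counts for the endothelial-like and other cells of NEJ654, 96.0% of the intervals for 11118 genes held the true ratio. Exact intervals reach at least 95% under counting error by design, so this value does not bear on variation between cells or libraries. All 10 genes are named. Of the other lists, up to 4 genes of the highest level and those of the highest and lowest ratio are named, and the 10 genes most like the mean of the 10. Vwf, Esm1, Rspo3, Wnt9b, Gja5 and Efnb2 were chosen after their values were seen. So were those of the 10 that are described in other classes and in sub-clusters, and those whose upstream bases are printed. The 10 genes and the lists were chosen with earlier results of these data known. Python 3.11.15, scipy 1.17.1 and scikit-learn 1.9.0 were used. The alternatives tried are listed in the closing section.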

Additional observations from a re-analysis of the deposited data

Results flagged for a closer look

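Signal lay in cells that the comparisons above do not use. The 16 endothelial-like cells of NEJ709 held 1009 UMIs of the 10 genes among 146631, or 6881 CPM (6463 to 7319), against 91.1 CPM in the other cells of that library. These included 131 UMIs of Stab1, 152 of Stab2, 103 of Lyve1, 103 of Clec4g, 114 of Dnase1l3 and 12 of Gata4. In the cluster with both endothelial and macrophage markers the 10 genes summed to 5376 CPM in NEJ638, 6160 CPM in NEJ654 and 6063 CPM in NEJ677, against 273 to 637 CPM in macrophage-like cells of the same libraries. Its cells were deep, with median UMI counts of 4881, 6661 and 9649, and whether they are pairs of cells was not tested.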

How the results depend on the processing

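The count of genes at least 4-fold higher in endothelial-like than in other cells kept within 1.5 times of the reported 10 in 89 of 89 values. NEJ723 had under 20 cells by the top-barcode rule and gave no value there. Among the alternatives was a limit of 2-fold, which cannot show that a gene stayed 4-fold higher. Counts of genes at least 2-fold lower than in NEJ654 kept within 1.5 times of the reported count in 63 of 79 values. In NEJ638 and NEJ677 the reported count was 0, and each value that stayed 0 is among the 63. The tally therefore overstates how steady the counts of NEJ634, NEJ687 and NEJ723 were. For NEJ634 the 9 became 2 by the top-barcode rule alone (39 cells), at a limit of 4-fold, without the sub-clusters led by other classes, and relative to the 14 shared genes. For NEJ687 the 2 became 1 with every barcode over 500 UMIs, as a mean over cells, with the mixed cluster included and relative to the shared genes, 0 at 4-fold, 7 when single cells with UMIs of at least 2 of the 4 endothelial genes were taken, and 9 when that library was clustered alone, where 68 of its 121 cells joined a cluster of endothelial and mesenchymal markers and Lyve1 in the 62 cells then named endothelial-like was at 209 CPM. For NEJ723 the 6 became 3 at 4-fold, and for NEJ638 the 0 became 1 by the top-barcode rule, at resolution 2, clustered alone and without the led sub-clusters. Where no share of all genes at the same setting is printed above, these counts cannot be set against a background. Testing genes at 10 CPM in either library raised the continuous endothelial genes higher than in NEJ654 from 7 to 15 of 19 tested in NEJ723 (6.98% of all genes higher), from 1 to 5 of 15 in NEJ687 (5.71%), from 1 to 2 of 12 in NEJ638 (8.855%), from 0 to 1 of 13 in NEJ634 (13.29%) and from 0 to 1 of 12 in NEJ677 (0.4655%). The genes gained were under 10 CPM in NEJ654 and entered only through the library where they were higher, so the rise follows from the rule. That either-library rule, including the mixed cluster, leaving out the led sub-clusters and scaling to the shared genes were chosen after seeing the data. Single-cell gating lowered every level, to 0.484 to 0.844 of the reported one, and thinning to 500 UMIs moved 57 of 60 shares past their interval. Levels rest on the fewest cells in NEJ723 and NEJ687. No paired analysis was possible because the labels give no groups or replicate numbers.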
